A study of Mus musculus with 12 samples.

Results

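The genes of the blood-testis barrier were followed in mouse testis over the first wave of spermatogenesis. They are 8 of the 37675 genes listed for each library and were chosen by name for their known place in the junctions between Sertoli cells. Cldn11, Cldn3 and Cldn5 are claudins, Ocln and F11r are further membrane proteins of tight junctions, Tjp1 is their cytoplasmic adaptor, Gja1 forms gap junctions and Cdh2 is a cadherin. All 8 passed the filter on low counts and were tested.

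The blood-testis barrier is made by neighbouring Sertoli cells, the somatic nurse cells of the seminiferous tubule. It combines tight junctions, gap junctions and the actin-rich basal ectoplasmic specialisation, an adherens-type junction found in the testis. It closes off the inner compartment of the tubule, in which spermatocytes past their first stages and spermatids develop, and in the mouse it forms between PND 14 and PND 21. Claudins set the seal of a tight junction, occludin and the junctional adhesion molecules lie beside them in the membrane, and the ZO proteins tie these to actin.

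Testes were taken whole from C57BL/6NHsd mice, an inbred strain, at postnatal day (PND) 7, 14, 17, 21 and 28, with 2 mice at each age and 10 in all. RNA without ribosomal RNA was sequenced on the SOLiD 4, and each mouse had 3994026 to 13559548 counts. Each PND 7 mouse was split over 2 barcodes, which were added up. Every library is a mixture of all testicular cells, and in such bulk samples fewer cells of a type and less RNA per cell cannot be told apart. All 18 measured gene IDs of the Sertoli cell marker list, which stand for 17 genes, had reads in every mouse. Rhox5, also on the list, is not among these IDs. Such detection is only a weak check of the tissue, since a single read is enough, and Tsx had 1 read in PND 7 mouse 2.

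The library of PND 14 mouse 1 stood apart. It held spermatid transcripts, with 52.7 CPM (counts scaled to the TMM normalized size of the library) of Prm1 and 55.6 CPM of Tnp1, both of them genes of sperm chromatin packing, against 1.05 and 1.97 CPM in PND 14 mouse 2. Results of the 8 genes that use PND 14 are therefore given with and without it where the call changes, as are the PND 14 calls of Cldn26 and Gja6.

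The 5 genes that passed the test between the youngest and the oldest mice, described further on, are shown first by their promoters, so that the sequences before their starts can be read side by side. Each line is a window of 250 bases that ends at a RefSeq transcription start (GRCm38.p6 table), read 5′ to 3′ on the strand of the gene. Every window matched the mm9 genome once, and the mm9 position is given. Capitals mark matches, on either strand, to the GC box GGGCGG, the CCAAT box CCAAT and the GATA site AGATAA. Cldn11 lies on the plus strand with its window at chr3:31048592-31048841, Cldn5 on the plus strand at chr16:18776690-18776939, Ocln on the minus strand at chr13:101322674-101322923, Gja1 on the plus strand at chr10:56096856-56097105 and F11r on the plus strand at chr1:173367442-173367691.
Cldn11: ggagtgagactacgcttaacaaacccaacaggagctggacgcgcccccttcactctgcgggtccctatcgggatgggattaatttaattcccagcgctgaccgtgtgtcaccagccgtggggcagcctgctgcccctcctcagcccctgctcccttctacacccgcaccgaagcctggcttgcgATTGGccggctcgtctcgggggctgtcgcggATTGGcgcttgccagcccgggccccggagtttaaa
Cldn5: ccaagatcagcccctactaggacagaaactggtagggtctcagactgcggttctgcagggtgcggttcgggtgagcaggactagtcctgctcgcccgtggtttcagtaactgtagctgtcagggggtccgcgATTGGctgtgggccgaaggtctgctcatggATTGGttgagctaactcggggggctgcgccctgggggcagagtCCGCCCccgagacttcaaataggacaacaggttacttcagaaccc
Ocln: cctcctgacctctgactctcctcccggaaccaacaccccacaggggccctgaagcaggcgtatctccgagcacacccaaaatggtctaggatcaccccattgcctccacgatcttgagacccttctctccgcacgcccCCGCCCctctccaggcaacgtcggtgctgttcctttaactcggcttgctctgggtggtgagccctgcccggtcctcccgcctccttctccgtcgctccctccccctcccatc
Gja1: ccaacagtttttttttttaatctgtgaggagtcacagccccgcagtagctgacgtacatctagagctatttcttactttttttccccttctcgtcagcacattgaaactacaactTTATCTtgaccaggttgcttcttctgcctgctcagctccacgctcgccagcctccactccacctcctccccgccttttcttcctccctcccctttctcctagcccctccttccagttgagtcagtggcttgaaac
F11r: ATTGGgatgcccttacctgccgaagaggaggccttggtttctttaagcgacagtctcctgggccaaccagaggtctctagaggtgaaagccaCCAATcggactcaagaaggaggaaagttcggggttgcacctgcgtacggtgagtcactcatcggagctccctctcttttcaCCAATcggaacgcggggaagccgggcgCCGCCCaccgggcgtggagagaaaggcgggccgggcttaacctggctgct

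In the mm9 annotation these windows lie upstream of the genes, and only the last 26 bases of the F11r window reach into its annotated first exon. Among the windows shown, those of Cldn11, Cldn5 and F11r held a CCAAT box, at 66 and 35 bases before the start in Cldn11, at 118 and 88 bases in Cldn5, and at 250, 158 and 77 bases in F11r. The Gja1 window held neither a CCAAT nor a GC box but a GATA site 135 bases before the start. GC boxes stood 45 bases before the start in Cldn5, 112 in Ocln and 50 in F11r. Of the members that did not pass, the Tjp1 window held GC boxes 68 and 50 bases before the start and the Cldn3 window held one at 236 bases. Neither held a CCAAT box, and the Cdh2 window was not searched. RefSeq gives Ocln another start, whose window lies mostly within the annotated gene and is not printed, and this one held a CCAAT box 25 bases and a GC box 43 bases before the start. Of 32851 promoter windows of the same length, 33.8% held a CCAAT box, 32.7% a GC box and 9.99% the GATA letters. The letters TGACGTCA (the cAMP response element), ACAAAG (a SOX site) and TATAAA (the TATA box) were searched too and matched neither these 5 windows nor that of the other Ocln start, against 1.55%, 16.5% and 12.4% of all. These are matches of letters only.

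Levels were compared between genes in RPKM, the deposited count scaled by exon length and library size, so that long and short genes can be set side by side. Cldn11, a claudin without which mice form no working barrier, stood first among the 8 at every age. Its mean level was 131 ± 37.5 RPKM (SD, n = 2) in the PND 7 mice. It was 183 ± 39.7 RPKM at PND 14 and 183 ± 39.9 at PND 17, and had gone to 87.8 ± 12.3 RPKM by PND 21 and 47.9 ± 1.37 by PND 28. At PND 7 the order below it was Gja1 with 57.1 ± 9.10 RPKM, F11r with 34.5 ± 0.368, Tjp1 with 21.9 ± 0.580, Ocln with 16.6 ± 2.66, Cdh2 with 10.1 ± 0.0212, Cldn5 with 1.90 ± 0.509 and Cldn3 with 0.363 ± 0.378. The mice of neighbouring genes did not overlap in that order.

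At PND 28 the order had changed. Cdh2 stood second with 13.4 ± 6.48 RPKM, followed by Tjp1 with 11.5 ± 1.28, Gja1 with 10.6 ± 3.42, F11r with 9.42 ± 1.05, Cldn5 with 5.96 ± 1.65, Ocln with 4.10 ± 1.15 and Cldn3 with 0.780 ± 0.438. The mice of Cdh2 and Tjp1, of Tjp1 and Gja1, of Gja1 and F11r and of Cldn5 and Ocln overlapped, so these neighbours did not differ beyond their spread. Cldn3 was lowest at all 5 ages. The order of the means was the same at every age when TMM scaled CPM per kilobase of exon replaced RPKM.

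**Figure D1:**
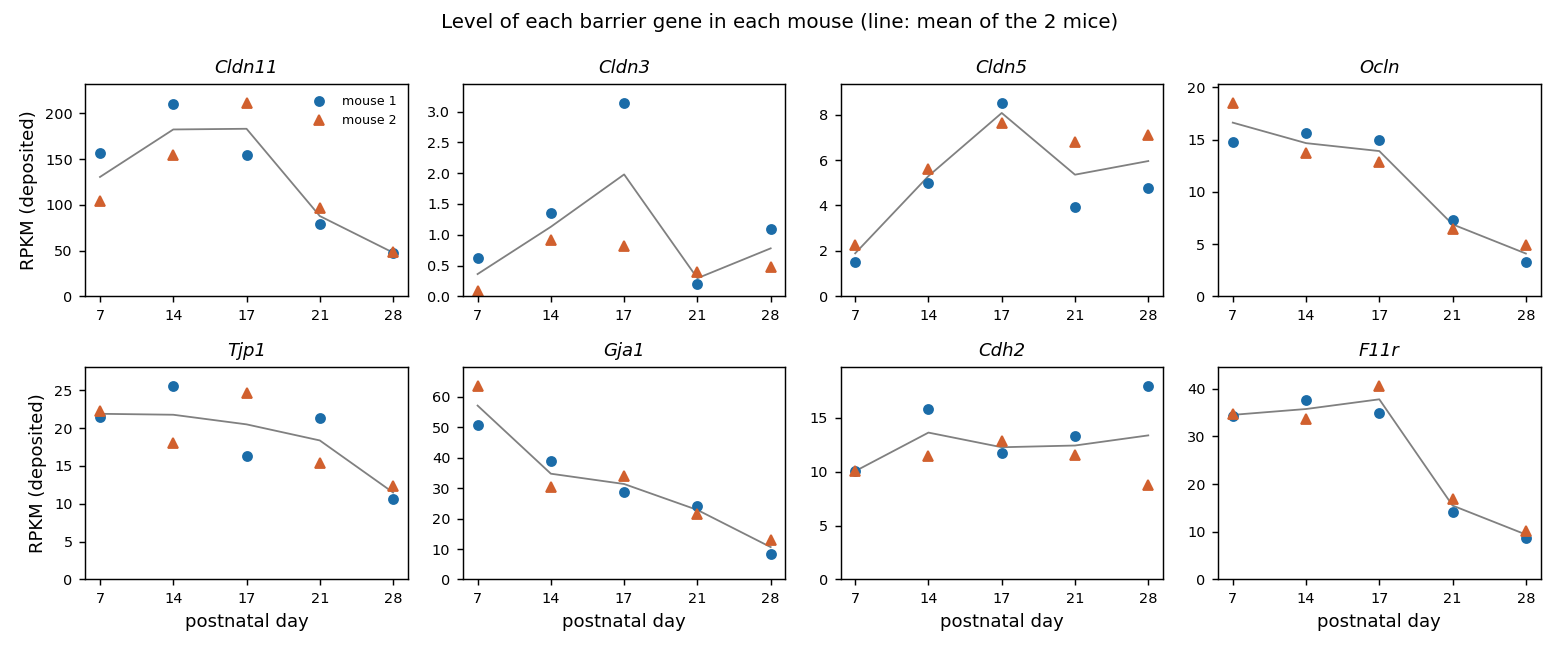
Deposited RPKM (vertical axis, starting at 0, own scale in each panel) of the 8 barrier genes against postnatal day, with a circle for mouse 1, a triangle for mouse 2 and a line through the mean of the 2 mice. F11r falls from 37.8 to 15.5 RPKM on average between PND 17 and PND 21, Gja1 is highest at PND 7, and the 2 mice of Cdh2 lie apart at PND 28, at 17.96 and 8.79 RPKM.

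Changes between ages were tested with edgeR's quasi-likelihood test on the counts, with all 10 mice in the fit. A gene was called at a Benjamini-Hochberg (BH) adjusted p under 0.05 over the 16860 genes tested and a change of at least 2-fold. With 2 mice against 2, an exact two-sided permutation test of a single gene cannot give a p below 0.333, so the calls rest on the spread shared across genes and ages. The mice of an age are separate animals that the study treats as biological replicates, and their litters are not given in the sources used here.

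Between PND 7 and PND 28, 5 of the 8 members were called. Cldn5 was higher at PND 28, and Cldn11, Ocln, Gja1 and F11r were lower. Over all genes tested, 55.6% were called in this comparison, 32.2% higher and 23.4% lower, so the share of members called was near the background. The median log2 fold change of the members was -0.86 beside 0.10 over all genes. In a test of any difference among the 5 ages, without a fold requirement, 5 members had an adjusted p under 0.05 (edgeR, BH), against 57.5% of all genes.

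Between neighbouring ages few members were called. In PND 7/14 this was 1 of 8, Cldn5, higher, beside 18.9% of all genes (13.5% higher, 5.43% lower). In PND 14/17 it was 0 of 8, as for all genes, of which 0% were called in either direction (0 higher, 0 lower), while 769 of the 16860 had an unadjusted p under 0.05 and DESeq2 called 1. None of the 8 members had an unadjusted p under 0.05 there, and DESeq2 and limma called 0 members.

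In PND 17/21, 1 of 8 was called, F11r, lower, beside 10.3% of all genes (9.29% higher, 1.05% lower). In PND 21/28, edgeR called 0 of 8 beside 7.66% of all genes (7.37% higher, 0.297% lower), with 3 members at an unadjusted p under 0.05, DESeq2 calling 0 and limma on log2(RPKM + 1) calling 1. The shares of all genes at the unadjusted p and by these other tools are not given, so their counts cannot be set against a background. By the adjusted p alone, with no fold requirement, the share of all genes was 22.3%, 0%, 11.8% and 8.27% for the 4 steps in order of age and 62.6% for PND 7/28. Neighbouring comparisons share the mice of the age between them.

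Across the window in which the barrier forms, PND 14/21, edgeR called 0 of the 8 members at the 2-fold limit, beside 14.0% of all genes (11.8% higher, 2.27% lower). By adjusted p alone 2 members passed, F11r and Ocln, both lower, beside 16.9% of all genes. At an unadjusted p under 0.05 there were 3 members, with Cldn11 as the further one. The share of all genes at that limit or by the other tools is not given here, so those counts have no background. DESeq2 called 0, limma on log2(RPKM + 1) called 2 and limma on log2(RPKM + 0.1) called 1. No member passed the test as higher in this window, in which the median log2 fold change of the members was -0.62 beside -0.06 over all genes.

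Cldn11 (ENSMUSG00000037625, chr3:31048868-31063246, 3 exons) is the claudin of Sertoli cells and of myelin. It was measured at 274 and 177 CPM at PND 7, 327 and 260 at PND 14, 262 and 367 at PND 17, 138 and 191 at PND 21 and 103 and 105 at PND 28. The mice of PND 7, 14 and 17 overlapped. Those of PND 21 lay below PND 14 and PND 17, with mouse 2 inside and mouse 1 below the range of PND 7, and those of PND 28 were the lowest of the 10. From PND 7 to PND 28 the log2 fold change was -1.12 ± 0.29 (SE, edgeR, adjusted p = 0.00567), which is 2.17-fold lower. Without PND 7 mouse 1 it was -0.75, adjusted p = 0.0583 by edgeR, and with RLE scaling or DESeq2 it was -0.95, under the 2-fold limit. The step from PND 17 to PND 21 was -0.93 ± 0.28 and had an adjusted p of 0.0577 by edgeR.

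Cldn5 (ENSMUSG00000041378, chr16:18776940-18778353, 1 exon) is the main claudin of the endothelium and is also made in the testis tubule. It stood at 2.002 and 2.956 CPM at PND 7, 5.94 and 7.23 at PND 14, 11.02 and 10.16 at PND 17, 5.25 and 10.3 at PND 21 and 8.04 and 11.8 at PND 28. The PND 7 mice were below all 8 older mice, and the PND 21 mice lay on both sides of the PND 14 mice. These levels rest on 20 to 158 reads per mouse. From PND 7 to PND 28 it rose 3.98-fold, a log2 fold change of 1.99 ± 0.46 (edgeR, adjusted p = 0.00312). In PND 7/14 the log2 fold change was 1.41 ± 0.45 (edgeR, adjusted p = 0.0472), close to the limit. Without PND 14 mouse 1 that step had a log2 fold change of 1.52 and an adjusted p of 0.0766 by edgeR, and the call was lost in the same way without any 1 of the 8 mice of PND 7, 14, 17 and 28, with log2 fold changes between 1.18 and 1.72.

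Cldn3 (ENSMUSG00000070473, chr5:135462084-135463342) is an androgen-regulated claudin of newly made tight junctions in the mouse tubule. It was near the detection limit, with 8 and 1 reads at PND 7, 13 and 8 at PND 14, 52 and 4 at PND 17, 1 and 3 at PND 21 and 12 and 3 at PND 28. In CPM, PND 17 mouse 1 was highest with 3.63 and its partner had 0.968, so that age spanned most of the range. A count of 0 allows up to 3 counts, between 0.209 and 0.726 CPM depending on the mouse, and this covers counting error only. The log2 fold change from PND 7 to PND 28 was 1.27 ± 0.98 (edgeR, adjusted p = 0.278), and with TMM no difference in Cldn3 was detectable at this depth. Single mice moved this value, to 3.05 without PND 7 mouse 1, 0.60 without PND 7 mouse 2 and 0.50 without PND 28 mouse 1. An lincRNA, Wbscr25, overlaps the gene on the opposite strand, and whether the counting used strand is not stated.

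Ocln (ENSMUSG00000021638, chr13:101266462-101322673, minus strand) encodes occludin, a membrane protein of tight junctions. Its levels were 59.3 and 73.1 CPM at PND 7, 55.7 and 52.7 at PND 14, 57.8 and 51.1 at PND 17, 29.3 and 29.2 at PND 21 and 16.5 and 24.2 at PND 28. The lowest of the 6 mice up to PND 17, at 51.1 CPM, was above the highest of the 4 older mice, at 29.3 CPM. From PND 7 to PND 28 Ocln fell 3.27-fold (log2 fold change -1.71 ± 0.25, edgeR adjusted p = 0.000167). From PND 17 to PND 21 the change was -0.90 ± 0.25 (edgeR, adjusted p = 0.0393), short of 2-fold, and from PND 14 to PND 21 it was -0.89 ± 0.25 (edgeR, adjusted p = 0.0317). Without PND 14 mouse 1 the latter was -0.84, adjusted p = 0.119 by edgeR.

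F11r (ENSMUSG00000038235, chr1:173367666-173394734) encodes JAM-A, a junctional adhesion molecule of the immunoglobulin superfamily. It was measured at 86.9 and 84.8 CPM at PND 7, 84.6 and 82.0 at PND 14, 85.3 and 102 at PND 17, 35.6 and 48.3 at PND 21 and 27.4 and 31.6 at PND 28. The 6 mice up to PND 17 lay close together and apart from the 4 older mice, with 82.0 CPM as the lowest of the former and 48.3 CPM as the highest of the latter. By edgeR with TMM, F11r was the only member called in a step between neighbouring ages after PND 14. With library totals, edgeR also called Cldn11 in PND 17/21 (-1.04, adjusted p = 0.038) and Gja1 in PND 21/28 (-1.11, adjusted p = 0.04). From PND 17 to PND 21 F11r fell 2.22-fold with TMM (log2 fold change -1.15 ± 0.22, edgeR adjusted p = 0.0102).

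The F11r step kept its direction without each of the mice, but its call was lost without PND 17 mouse 2 (-1.02, adjusted p = 0.116 by edgeR) and without PND 21 mouse 1 (-0.94, adjusted p = 0.0886 by edgeR). From PND 14 to PND 21 the log2 fold change was -0.99 ± 0.22 (edgeR, adjusted p = 0.0135), just under 2-fold, and without PND 14 mouse 1 it was -0.95 with an adjusted p of 0.0545 by edgeR. From PND 7 to PND 28 F11r fell 2.92-fold (-1.54 ± 0.23, edgeR adjusted p = 0.000173).

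Tjp1 (ENSMUSG00000030516, chr7:72441051-72516125, minus strand) encodes ZO-1, the scaffold that links claudins, occludin and JAM-A to actin. Its levels were 149.5 and 152 CPM at PND 7, 159 and 121 at PND 14, 110.2 and 171 at PND 17, 148 and 122 at PND 21 and 92.4 and 107 at PND 28. The mice of PND 7 to PND 21 overlapped, and those of PND 28 were the lowest of the 10. The log2 fold change from PND 7 to PND 28 was -0.60 ± 0.26 (edgeR, adjusted p = 0.0600) and Tjp1 was called in no comparison by edgeR with TMM.

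Gja1 (ENSMUSG00000050953, chr10:56097106-56110225) encodes connexin 43, the gap junction protein that Sertoli cells share with each other and with germ cells. It stood at 149 and 183 CPM at PND 7, 102 and 86.2 at PND 14, 81.6 and 99.5 at PND 17, 70.9 and 71.8 at PND 21 and 30.3 and 47.3 at PND 28. The PND 7 mice were above and the PND 28 mice below all others, and PND 14 and PND 17 overlapped. Gja1 had the largest fall among the 8 over the whole span, 4.30-fold (log2 fold change -2.10 ± 0.26, edgeR adjusted p = 5.13e-05).

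With TMM, Gja1 fell at no single step by the 2-fold limit. In PND 7/14 the log2 fold change was -0.82 ± 0.25 (edgeR, adjusted p = 0.0388, under 2-fold). In PND 14/21 it was -0.40 ± 0.25 (edgeR, adjusted p = 0.296), made up of -0.06 ± 0.25 in PND 14/17 and -0.34 ± 0.25 in PND 17/21. In PND 21/28 it was -0.89 ± 0.26 (edgeR, adjusted p = 0.0589). Without PND 14 mouse 1 the first of these was -0.98 with an adjusted p of 0.0542 by edgeR. The differences between these steps were not tested.

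Cdh2 (ENSMUSG00000024304) encodes N-cadherin, the cadherin of the basal ectoplasmic specialisation. It was measured at 76.1 and 75.9 CPM at PND 7, 108 and 84.3 at PND 14, 86.8 and 97.3 at PND 17, 102 and 99.8 at PND 21 and 172 and 82.9 at PND 28. The PND 7 mice were the lowest of all 10, and PND 28 held both the highest mouse and one below the PND 14 mice. The log2 fold change from PND 7 to PND 28 was 0.75 ± 0.30 (edgeR, adjusted p = 0.0493), under 2-fold, and Cdh2 was not called. Leaving out PND 28 mouse 1 gave 0.14, and leaving out its partner gave 1.20. A processed transcript, Gm15485, overlaps Cdh2 on the opposite strand.

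As germ cells accumulate, Sertoli cells become a smaller share of the testis, so the comparisons were repeated with each library scaled to 6 Sertoli cell genes (Sox9, Wt1, Fshr, Gata4, Inha and Dhh) in place of TMM. On the TMM scale 5 of these 6 were themselves called lower at PND 28, from a log2 fold change of -1.54 for Wt1 to -3.13 for Sox9, and Inha had -0.56 (edgeR, adjusted p = 0.126). After scaling, 1 of the 6 was called higher and 1, Sox9, lower (-1.35, edgeR adjusted p = 0.00996). The 6 thus differed among themselves, and the sign of a small change depends on which of them is the reference. Scaling to all 6 moved the median log2 fold change of all genes in PND 7/28 by 1.84. On this scale 4 members were called in PND 7/28, all of them higher, against 1 higher and 4 lower with TMM. Over all genes 67.3% were then called, 64.8% higher and 2.50% lower, and the members' median log2 fold change was 0.98 beside 1.94 over all genes. The change of sign goes with a shift that all genes share. Such a shift leaves the members' place below the median of all genes nearly as it was, so the other scale adds no support for it.

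Cldn11 then had a log2 fold change of 0.74 ± 0.36 (edgeR, adjusted p = 0.0783), Ocln 0.09 ± 0.36 (0.845), F11r 0.28 ± 0.33 (0.468) and Gja1 -0.32 ± 0.34 (0.423), and none of these 4 was called. Cldn5 rose by 3.79 ± 0.54 on the log2 scale (edgeR, adjusted p = 9.23e-06), Cdh2 by 2.64 ± 0.43 (4.09e-05), Tjp1 by 1.22 ± 0.36 (0.00597) and Cldn3 by 3.18 ± 1.05 (0.0129). A gene that is higher with TMM is higher still on this scale by the same shift, so the call of Cldn5 there is no sign of stability. In PND 17/21 F11r was at -0.54 ± 0.33 (edgeR, adjusted p = 0.287) relative to the Sertoli cell genes, and in PND 14/21 at -0.22 ± 0.33 (0.691).

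As plain ratios, Cldn11 CPM divided by the geometric mean CPM of the 6 genes was 3.29 and 2.54 in the PND 7 mice and lay between 4.33 and 6.97 in the 8 older mice. The ratio of Ocln lay between 0.711 and 1.31 in all 10 mice with the ages overlapping. The ratio of Tjp1 was 1.79 and 2.18 at PND 7 and 4.86 and 4.39 at PND 28. That of Cldn5 went from 0.0240 and 0.0423 to 0.423 and 0.484. The ratio does not separate Sertoli cells from the other cells that also make these genes.

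**Figure D2:**
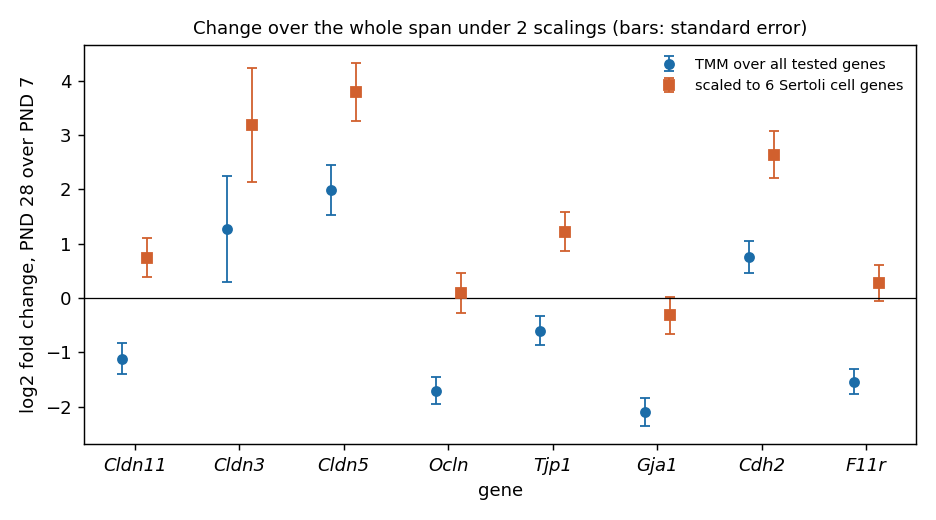
Log2 fold change of the 8 barrier genes from PND 7 to PND 28 (vertical axis) with TMM over all tested genes (circles) and with scaling to 6 Sertoli cell genes (squares), with bars for the standard error of the edgeR fit on 2 mice per age. Cldn11, Ocln, Tjp1 and F11r lie below 0 with TMM and above 0 with the Sertoli cell genes, while every gene moves up by about the shift of 1.84 that the second scaling gives the median of all genes.

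Marker lists of testicular cells were summed over the same mice. The summed level of the Sertoli cell list, 18 gene IDs for 17 genes since Trf has 2 IDs that both enter the sum, was 3768 and 3302 CPM at PND 7, 3374 and 2489 at PND 14, 2419 and 2930 at PND 17, 1715 and 2086 at PND 21 and 1314 and 1439 at PND 28, and on the TMM scale 11 of the 18 IDs were called lower and 3, Tsx and both Trf IDs, higher from PND 7 to PND 28 (edgeR). All 6 scaling genes are in this list, so its counts under the Sertoli gene scaling are not given. Spermatocyte markers summed to 361 and 309 CPM at PND 7 and to 8889 and 8594 at PND 28, with Ldhc and Tdrd6 at 0 in PND 7 mouse 2. Most of the PND 28 sum was Ldhc, with 44988 and 23956 reads. From PND 21 to PND 28, 0 of the 9 spermatocyte markers were called (median log2 fold change -0.01, edgeR), beside 7.66% of all genes. Spermatid markers went from 3.20 and 6.32 CPM to 6108 and 7088, and the defining genes Prm1, Prm2 and Tnp2 were at 0 in both PND 7 mice. In PND 14 mouse 1 the spermatid sum was 226 CPM against 27.3 in its partner and 29.5 and 27.8 at PND 17. The part of these cell types in the falls of Cldn11, Ocln, Gja1 and F11r was not tested.

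Cldn5, a gene of endothelium, was higher at PND 28 while the endothelial list summed to less. The 10 endothelial markers, all detected in every mouse, summed to 131 and 159 CPM at PND 7, between 57.5 and 106 CPM from PND 14 to PND 21, and 54.8 and 69.0 CPM at PND 28. From PND 7 to PND 28 5 of the 10 were called lower and 1, Vwf, higher with TMM (edgeR), and 0 lower and 3 higher with the Sertoli gene scaling, beside 23.4% lower and 32.2% higher of all genes with TMM and 2.50% and 64.8% with that scaling. Leydig cell markers, another interstitial list of 8 genes, went from 324 and 328 CPM to 1225 and 919 CPM, and differed between the PND 21 mice with 177 and 473 CPM. Peritubular myoid markers (6 genes) summed to 419 and 532 CPM at PND 7 and 229.8 and 276 at PND 28, macrophage markers (7 genes) to between 84.5 and 167 CPM over all mice, and spermatogonial markers (9 genes) to 431 and 360 CPM at PND 7 and 115 and 139 at PND 28. From PND 7 to PND 28 with TMM (edgeR), 4 Leydig markers were called higher and 1 lower, and 1 myoid marker higher and 3 lower. With the Sertoli gene scaling these counts were 6 and 0, and 1 and 0. The shares of all genes are those given for the endothelial list. The myoid gene Actg2 went against the sum of its list, with 59 and 106 reads at PND 7 and 626 and 374 at PND 28.

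**Figure D3:**
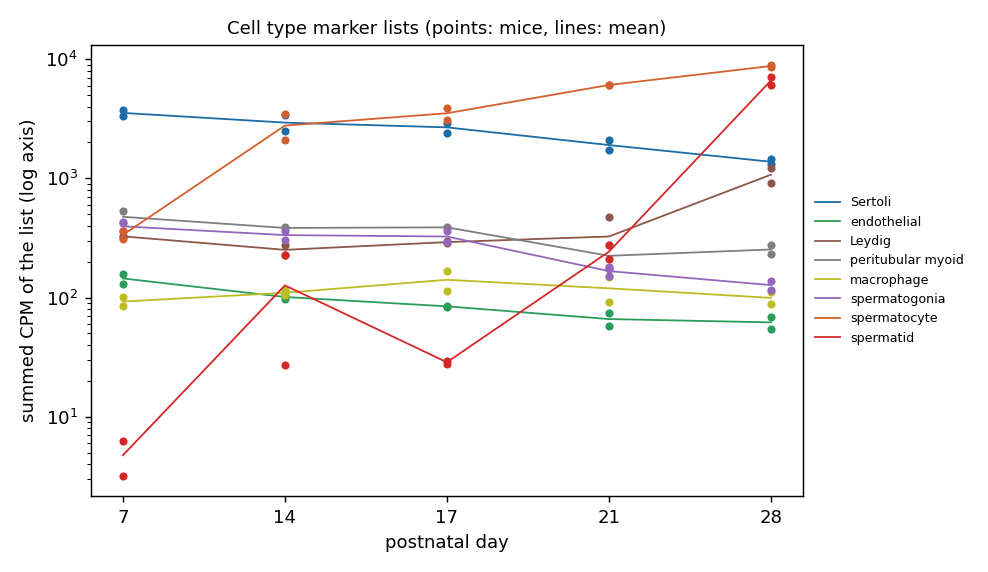
Summed CPM of each cell type marker list (vertical log axis) against postnatal day, with a point for each mouse and a line through the mean of 2 mice. The Sertoli list lies at 3768 and 3302 CPM at PND 7 and at 1314 and 1439 CPM at PND 28. The sums of the spermatocyte and spermatid lists are highest at PND 28, where most of the spermatocyte sum is Ldhc. The spermatid points of the PND 14 mice lie apart at 226 and 27.3 CPM.

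Among all claudins, Cldn11 carried most of the signal. The annotation names 27 claudins, of which 12 passed the filter and 5 were at 0 in every mouse. Cldn11 made up between 56.6% and 71.4% of the summed claudin RPKM of a mouse up to PND 21, and 49.2% and 49.1% in the PND 28 mice. The summed claudin level itself went from 229.7 and 184 RPKM at PND 7 to 95.4 and 99.4 RPKM at PND 28. Cldn5 was 0.977% and 2.17% of the Cldn11 level at PND 7 and 10.2% and 14.6% at PND 28.

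From PND 7 to PND 28, 2 of the 12 tested claudins were called higher and 5 lower with TMM (32.2% and 23.4% of all genes), and 5 higher and 2 lower with the Sertoli gene scaling (64.8% and 2.50% of all genes, edgeR). Their median log2 fold change was -0.88 with TMM and 0.95 with the Sertoli gene scaling, beside 0.10 and 1.94 over all genes. The tested claudins include Cldn13, with 0 reads in every mouse up to PND 21 and 14 and 19 reads at PND 28. Cldn13 passed the filter only through the age at which it is high, so a call of it as higher is no support. Others of the tested claudins had few reads or reads in a single mouse of an age. Cldn4 had 3 and 44 reads at PND 7 and 0 and 0 at PND 28, Cldn8 had 0 and 56 and then 0 and 1, and Cldn15 had 18 and 14 and then 2 and 1. A call of any of these as lower is no support either. Cldn26 (Tmem114 in RefSeq), a distant claudin relative, had 33.5 ± 3.87 CPM (SD, n = 2) at PND 7 and 9.22 ± 1.61 at PND 28, a log2 fold change of -1.85 ± 0.29 with TMM (edgeR, adjusted p = 0.000284) and of 0.01 with the Sertoli gene scaling. It was also the only tested claudin called between PND 14 and PND 21, at -1.10 ± 0.28 (edgeR, adjusted p = 0.0230), and this call was lost without PND 14 mouse 1, at -0.78 with an adjusted p of 0.175 by edgeR.

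The gap junction family shifted in its make-up. Of 20 connexins 8 were tested, 2 of them called higher and 3 lower from PND 7 to PND 28 with TMM, and 2 higher and 0 lower with the Sertoli gene scaling (edgeR). The median log2 fold change was -0.71 with TMM and 1.07 with the Sertoli gene scaling, beside 0.10 and 1.94 over all genes, of which 32.2% and 64.8% were called higher and 23.4% and 2.50% lower. Gja1 made up 76.7% and 77.9% of the summed connexin RPKM at PND 7, 51.9% and 50.6% at PND 14, 48.3% and 49.9% at PND 17, 54.9% and 48.5% at PND 21 and 29.5% and 39.3% at PND 28. These shares within a library do not depend on the scaling.

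The largest rise in the connexins was that of Gja6, which encodes connexin 33, a testis connexin. It was measured at 2.40 and 4.30 CPM at PND 7, 33.5 and 30.6 at PND 14, 33.8 and 41.6 at PND 17, 15.0 and 29.0 at PND 21 and 24.5 and 26.3 at PND 28. The PND 7 mice lay below all others, and the log2 fold change was 3.27 ± 0.39 in PND 7/14 (edgeR, adjusted p = 0.000220, and 3.18 without PND 14 mouse 1, adjusted p = 0.000644) and 2.94 ± 0.39 in PND 7/28 (edgeR, adjusted p = 8.53e-05). Gjc1, which encodes connexin 45, fell with TMM by 1.02 ± 0.26 on the log2 scale from PND 7 to PND 28 (edgeR, adjusted p = 0.00501) but had 0.79 with the Sertoli gene scaling.

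**Figure D4:**
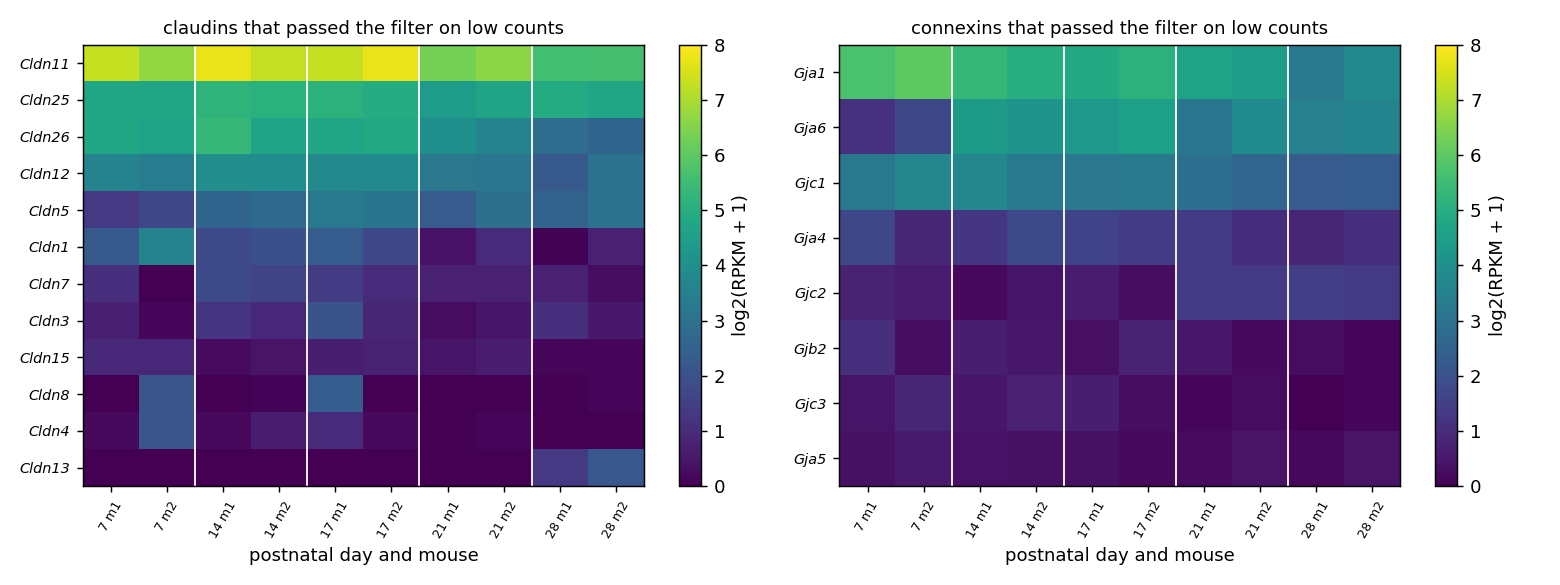
Heat maps of log2(RPKM + 1) for the 12 claudins and 8 connexins that passed the filter on low counts, with genes in rows ordered by their mean, mice in columns by postnatal day (m1 and m2 are the 2 mice of an age) and white lines between the ages. Cldn11 is the brightest claudin in every mouse and Gja1 the brightest connexin in 9 mice, while Gja6 is darkest at PND 7.

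Other tight junction genes fell more often than they rose on the TMM scale. Of 22 listed genes, which hold the remaining ZO, JAM and angulin proteins and the polarity complexes, 19 were tested from PND 7 to PND 28, with 2 called higher and 10 lower (median log2 fold change -1.29), beside 32.2% higher and 23.4% lower of all genes (median 0.10). With the Sertoli gene scaling 9 were called higher and 2 lower (median 0.54), beside 64.8% higher and 2.50% lower of all genes (median 1.94). A scaling moves all genes of a library together, so the list's place below the median of all genes is 1 result and not 2. Ildr2, an angulin, went from 75.1 ± 18.8 to 2.58 ± 1.91 CPM (-4.97 ± 0.48, edgeR adjusted p = 9.44e-06). Cxadr, an adhesion receptor of the JAM family, went from 52.2 ± 0.0747 to 2.103 ± 0.689 CPM (-4.58 ± 0.41, edgeR adjusted p = 5.70e-06). Both were lower with either scaling, at -3.19 and -2.73 relative to the Sertoli cell genes. Pard6a, a polarity protein, rose from 3.60 ± 0.149 to 36.6 ± 6.43 CPM and Mpp5, a polarity scaffold, from 70.4 ± 1.29 to 219.9 ± 1.73 CPM.

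Of 18 adherens junction and desmosome genes, 17 were tested, with 1 called higher and 8 lower (median -0.96), against 32.2% and 23.4% of all genes (median 0.10). With the Sertoli gene scaling it was 8 higher and 0 lower (median 0.84), against 64.8% and 2.50% of all genes (median 1.94). Pvrl3 encodes nectin-3, which spermatids carry at their contact with Sertoli cells. It rose from 30.4 ± 1.92 CPM at PND 7 to 693 ± 26.4 at PND 28 by way of 112 ± 25.2, 149.6 ± 42.2 and 373 ± 28.0 CPM at the 3 ages between, a log2 fold change of 4.51 ± 0.29 over the span (edgeR, adjusted p = 7.24e-07). The catenins that bind cadherins, Ctnnb1 and Ctnna1, fell with TMM (-1.92 ± 0.49 and -1.25 ± 0.26, edgeR adjusted p = 0.00543 and 0.00184) and were at -0.20 and 0.53 with the Sertoli gene scaling, where neither was called.

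All 18 genes of the ectoplasmic specialisation and its actin and laminin partners were tested, with 3 called higher and 9 lower (median -1.08; 32.2%, 23.4% and 0.10 for all genes). The Sertoli gene scaling gave 7 higher and 0 lower (median 0.78), where the common shift puts 64.8% of all genes higher and 2.50% lower (median 1.94). Rai14, an actin-binding protein, had 62.8 ± 2.86 CPM at PND 7 and 227 ± 125 at PND 28 (1.85 ± 0.42, edgeR adjusted p = 0.00274), with a wide spread at PND 28. Plec, a cytoskeletal linker, rose from 155 ± 32.5 to 347 ± 38.0 CPM (1.16 ± 0.36, edgeR adjusted p = 0.0156; 0.84 with library totals). The laminin chain Lama3 and the integrin Itga6 fell with TMM (-2.66 ± 0.43 and -2.25 ± 0.32, edgeR adjusted p = 0.000320 and 0.000146) and were at -0.85 and -0.40 with the Sertoli gene scaling, not called.

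Of 22 regulators of the barrier, 20 were tested, with 2 called higher and 11 lower (median -1.57) where all genes had 32.2% and 23.4% (median 0.10). On the Sertoli gene scale 8 were higher and 2 lower (median 0.28) where all genes had 64.8% and 2.50% (median 1.94). The list holds hormone receptors, cytokines, kinases and Sertoli cell transcription factors, and 4 of its 22 genes are also among the 6 used for that scaling. Mtor, a growth kinase, rose from 112 ± 11.9 to 297 ± 63.5 CPM (1.41 ± 0.22, edgeR adjusted p = 0.000292). Sox8, a Sertoli cell transcription factor related to Sox9, fell with TMM from 44.9 ± 5.40 to 10.5 ± 0.893 CPM (-2.11 ± 0.38, edgeR adjusted p = 0.000626) and was at -0.27 with the Sertoli gene scaling.

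The genes whose log2(CPM + 1) was most like that of a member over the 10 mice were looked up, as a description, among tested genes that averaged 10 CPM or more. The 10 points share 5 ages and the libraries' composition. The highest Pearson's r was 0.983 for Cldn11 with Uxs1, 0.990 for Ocln with Ube2e3, 0.998 for Gja1 with Etv6, 0.990 for F11r with Snx18, 0.971 for Tjp1 with Tgfbr3, 0.954 for Cldn5 with Hspa5, 0.940 for Cdh2 with Med8 and 0.859 for Cldn3 with Eme1. Of the 24 genes in the 3 best of each member, 3 were also in the 3 best by Spearman's rho (Rictor for Cldn11, Eme1 for Cldn3 and Etv6 for Gja1). Among the members themselves, r was 0.946 between Ocln and F11r, 0.924 between Cldn11 and F11r and 0.922 between Ocln and Gja1, while Cldn5 had -0.661 with Gja1 and Cdh2 had -0.731 with Gja1.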

How the data were processed

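The authors aligned 50 bp SOLiD 4 reads to mm9 with LifeScope, removed ribosomal, transfer RNA, repeat and multiply aligned reads, counted the uniquely placed reads over the exons of every Ensembl gene, and deposited these counts with an RPKM, the count scaled by exon length and counted reads. The use of strand in counting is not given in the sources used here. Symbols came from the GENCODE annotation of NCBIM37, in which 37310 of 37675 IDs were found. The barcodes of a PND 7 mouse were summed for counts and averaged for RPKM, which left 10 mice with totals of 3994026 to 13559548 (median 7103531).

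Counts were tested with edgeR 4.0.16 in R 4.3.3 (TMM, filterByExpr, quasi-likelihood test, 1 fit of 10 mice on age, common dispersion 0.0726, prior df 5.82). The test was also run on counts simulated from the fit's own dispersions with few genes changed, which cannot check the scaling. The alternatives were DESeq2 1.42.0, limma 3.58.1 on log2(RPKM + 1) and log2(RPKM + 0.1), RLE, library totals or 6 Sertoli cell genes for scaling, other filters, only the 4 mice compared, separate barcodes, no mitochondrial and small structural RNAs, mouse number as a block and leaving out each mouse. Tables and figures used Python 3.11.15, numpy 2.4.6, pandas 2.3.3 and matplotlib 3.10.9.

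The members and lists were chosen with earlier results of these data known. From each other list at most 2 rising and 2 falling genes with the largest fitted change were named among those called in PND 7/28 with a mean of at least 10 CPM. Further family and marker genes (Prm1, Prm2, Tnp1, Tnp2, Ldhc, Tdrd6, Vwf) were named after their values were seen. Promoters came from RefSeq (GRCm38.p6) for 7 of the 8 members, all but Cdh2.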

Additional observations from a re-analysis of the deposited data

How the results depend on the processing

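The number of members called moved with these choices. In PND 7/14 (1 in the report) it was 0 with limma on log2(RPKM + 0.1), 0 with only the 4 mice compared, where 7 members passed the filter, 2 with no 2-fold requirement, and 0 to 1 when mice were left out. In PND 17/21 (1) it was 2 with library totals, 2 with no filter on low counts, 2 with no 2-fold requirement, 0 with Sertoli gene scaling, and 0 to 1 without single mice, with 0 without PND 17 mouse 2 and without PND 21 mouse 1. In PND 21/28 (0) it was 1 with library totals and 1 with limma on log2(RPKM + 1), Gja1 in both. In PND 14/21 (0) it was 3 with library totals, 2 with limma on log2(RPKM + 1), 1 with limma on log2(RPKM + 0.1), 1 with no filter, 2 with no 2-fold requirement, and 0 to 1 without single mice. For any age (5) it was 3 with Sertoli gene scaling and 4 to 6 without single mice. PND 7/28 (5) had 4 to 6 without single mice, with 4 without PND 7 mouse 1 and 6 without PND 28 mouse 2. Shares of all genes are not given beside these counts, which show only how the calls of members moved.

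Sertoli gene scaling turned the PND 7/28 log2 fold change of Cldn11 to 0.74, Ocln to 0.09, Tjp1 to 1.22 and F11r to 0.28. It moved the median of all genes by 1.84, RLE by 0.165 and library totals by -0.323. Of 306 values for 14 single-gene results, 274 kept direction and side of the threshold, 17 kept the direction but lost the call, 11 gained one and 4 reversed. Several of these results, such as Cdh2, Cldn3 and Tjp1 in PND 7/28, were not called to begin with. They kept their side by staying uncalled, so the 274 is no measure of how stable the calls were. The causes were not tested.

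With the mouse number as a replicate block, 1 member was called in PND 14/21, F11r, and no other count of members changed by over 1.5 times. The labels do not say that a number is shared between ages, and same-numbered deviations correlated at -0.17 to 0.34 over 10 pairs of ages, 2 of them above 0.1. Depth limits Cldn3, with 1 to 52 reads per mouse, and 2 mice per age limit all results.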
